A study of Mus musculus with 24 samples.

Results

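The comparison described here is that of E14 mouse embryonic stem cells (mESCs) at 12 h and at 2 h after the MEK inhibitor PD03 was taken out of the medium. Its members are 8 of the 24 libraries of the series, chosen by the time on their labels, with 4 libraries at 12 h and 4 at 2 h. Each time holds 2 replicates on soft and 2 on stiff StemBond hydrogels, and the substrate was kept as a block in the fit. The cells, of strain and genotype 129m wt, spent 12 h in 2i + LIF with 1 µM PD03 and 3 µM CHIRON on fibronectin-coated gels, and were then moved to CHIRON + LIF. A further 4 libraries collected in 2i + LIF at the time of the change, here 0 h, fix the level from which the early changes started. All cells therefore kept LIF and CHIRON, which blocks the kinase GSK3 and so keeps β-catenin from being degraded, and only PD03 was withdrawn. The remaining 12 libraries of the series come from a separate experiment, in which CHIRON was removed, and do not enter the comparison. No cells kept in 2i + LIF until 12 h are among the libraries, so that time without PD03, time since the medium change and time on the gel (14 h against 24 h) cannot be told apart. Every group is 1 cell line, with nothing in the labels to say that replicates came from separate cultures, and p-values then measure the spread between these samples, which may be technical.

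PD03 blocks MEK, the kinase that phosphorylates ERK, and in mESCs ERK is driven mainly by FGF4 that the cells make themselves. Active ERK induces immediate early genes, which need no new protein for their transcription and usually fall again soon, and feedback inhibitors such as the Dusp phosphatases and the Sprouty proteins, which damp the pathway. In mESCs the pathway is known for moving cells out of naïve pluripotency, the state of the pre-implantation epiblast, and blocking it is what PD03 does in 2i.

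The deposited counts of the 12 libraries of PD03 removal totalled between 16222196 and 26442153 a library, with a median of 19645600. After the filter on low counts 13393 protein-coding genes were tested, and values are given as normalised CPM, counts scaled to a common library size, in the order soft replicates 1 and 2, then stiff replicates 1 and 2. The share of counts from the mitochondrial genome was higher at each later time, with a range of 5.70% to 7.03% at 0 h, of 7.14% to 9.48% at 2 h and of 10.0% to 11.8% at 12 h. The cells carried the labelled identity, as 6 stem cell markers (Pou5f1, Sox2, Nanog, Esrrb, Zfp42 and Sall4) summed to between 4444 and 5092 CPM in the 12 libraries. Between 2 h and 12 h 4 of these 6 fell and 1 rose. Nanog stood at 998 to 1088 CPM at 2 h and 764 to 863 CPM at 12 h, and Sall4 at 539 to 599 and 707 to 789 CPM. The 5 fibroblast markers summed to between 1.03 and 2.57 CPM and the 6 primitive endoderm markers to between 3.35 and 5.35 CPM. The 6 trophoblast and 4 neural markers summed to 60.5 to 75.9 and 58.7 to 78.9 CPM. The largest single parts were Tfap2c, at 32.4 to 47.7 CPM, and Tubb3, at 48.4 to 70.5 CPM. Cdx2 stood at 13.1 to 15.5 CPM at 0 h, 8.58 to 11 CPM at 2 h and 17.4 to 20.7 CPM at 12 h. Eomes stood at 4.22 to 6.78, 6.44 to 9.07 and 15 to 20.8 CPM at these times. Of the 3 trophoblast markers tested between 2 h and 12 h, 2 rose and 1 fell. Sox1 and Pax6 stood between 1.87 and 9.76 CPM. Gata3, Elf5 and Krt7 reached at most 0.714 CPM and Neurog2 at most 0.344 CPM. The 5 mesendoderm markers summed to 15.5 to 17.2 CPM at 2 h and 34.3 to 38.8 CPM at 12 h, and of the 3 of these tested between 2 h and 12 h T rose and 1 fell. No marker of these lists was at 0 in all 12 libraries.

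Between 2 h and 12 h, 3217 genes rose, 24.0% of those tested, and 3347 fell, 25.0%, by edgeR's quasi-likelihood test at an adjusted p under 0.05. Most of these changes were small, with a median absolute log2 fold change of 0.30 among the called genes and a median over all tested genes of 0.0025. At least 2-fold changes numbered 218 genes that rose (1.63%) and 233 that fell (1.74%). For 2501 of the genes that rose (18.7%) and 2622 of those that fell (19.6%), the 4 libraries at 12 h lay wholly outside the range of the 4 at 2 h. By comparison, 450 genes were higher at 2 h than at 0 h (3.36%) and 336 were lower (2.51%), and 3220 were higher (24.0%) and 3279 lower (24.5%) at 12 h than at 0 h. The later interval is longer, 10 h against 2 h.

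Each of the 786 early genes, those called between 0 h and 2 h, was placed by its later calls. A gene that was called the opposite way between 2 h and 12 h had returned if it no longer differed from 0 h by the test, had partly returned if it still differed in its early direction, and had reversed if it now differed the other way. A gene with no later call that still differed from 0 h had persisted, one called again in its early direction had grown, and the rest were unresolved. Of the 450 early rises, 106 returned (23.6%), 28 partly returned (6.22%), 87 reversed (19.3%), 112 persisted (24.9%), 98 grew (21.8%) and 19 were unresolved. Of the 336 early falls, 89 returned (26.5%), 10 partly returned (2.98%), 84 reversed (25.0%), 61 persisted (18.2%), 78 grew (23.2%) and 14 were unresolved. Among all tested genes 24.0% rose and 25.0% fell between 2 h and 12 h, so the shares that grew were no larger than these. Leaving out 1 library brought the early falls down to as few as 215, those that persisted to 30 and those that grew to 48 (without stiff 0 h replicate 1). It brought those that reversed to 53 (without soft 0 h replicate 1). The falls that returned came to 58 (without soft 2 h replicate 2) and those that partly returned to 3 (without stiff 12 h replicate 1). Of the 786 early genes, 522 to 563 kept their class without 1 of the libraries at 0 h or 2 h, 678 to 707 without 1 at 12 h and 644 with DESeq2. Going back was called for 221 early rises and 183 early falls. The intervals share the 2 h libraries, so that noise in these enters both with opposite sign, and early genes were therefore also called in the libraries of 1 replicate number and read in those of the other. Of 236 early rises called in the libraries numbered 1, 149 had a later change of opposite sign in those numbered 2, and of 258 called in the libraries numbered 2 the number was 160. For early falls these counts were 90 of 159 and 62 of 100. When called and read in the same 12 libraries, 294 of the 450 early rises and 231 of the 336 early falls had a later change of opposite sign. How much of the going back comes from shared noise was not tested.

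**Figure D1:**
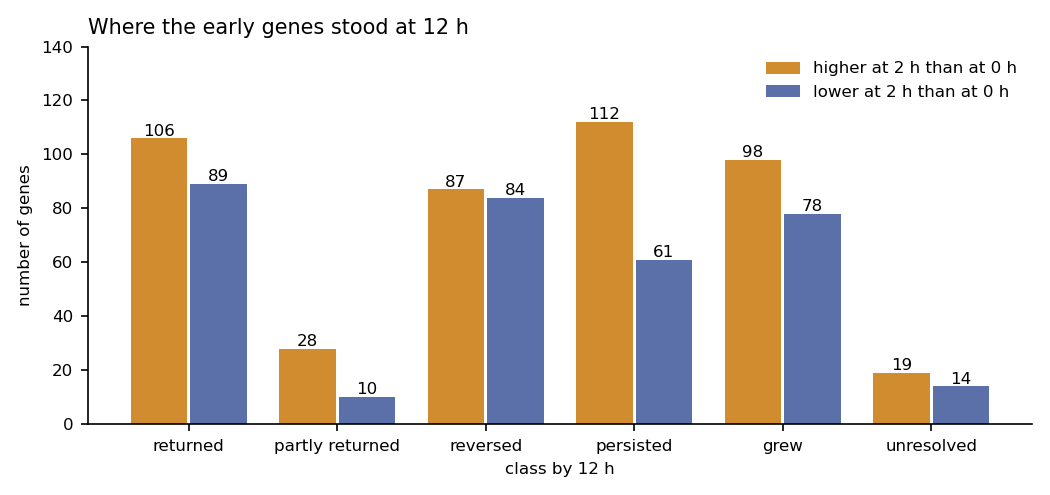
Number of genes in each class by 12 h, for genes higher (orange) and lower (blue) at 2 h than at 0 h. The bars start at 0, and among the early rises persisted (112) and returned (106) are the tallest.

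The rises that partly returned had the largest early changes, with a median log2 fold change of 0.80 at 2 h and 0.32 at 12 h, both against 0 h. The medians at 2 h were 0.25 for the rises that returned, 0.26 for those that persisted, 0.31 for those that grew and 0.21 for those that reversed. By 12 h the rises that grew had a median of 0.75 against 0 h, and those that reversed a median of -0.27. These medians describe classes set by the same fits and were not tested.

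**Figure D2:**
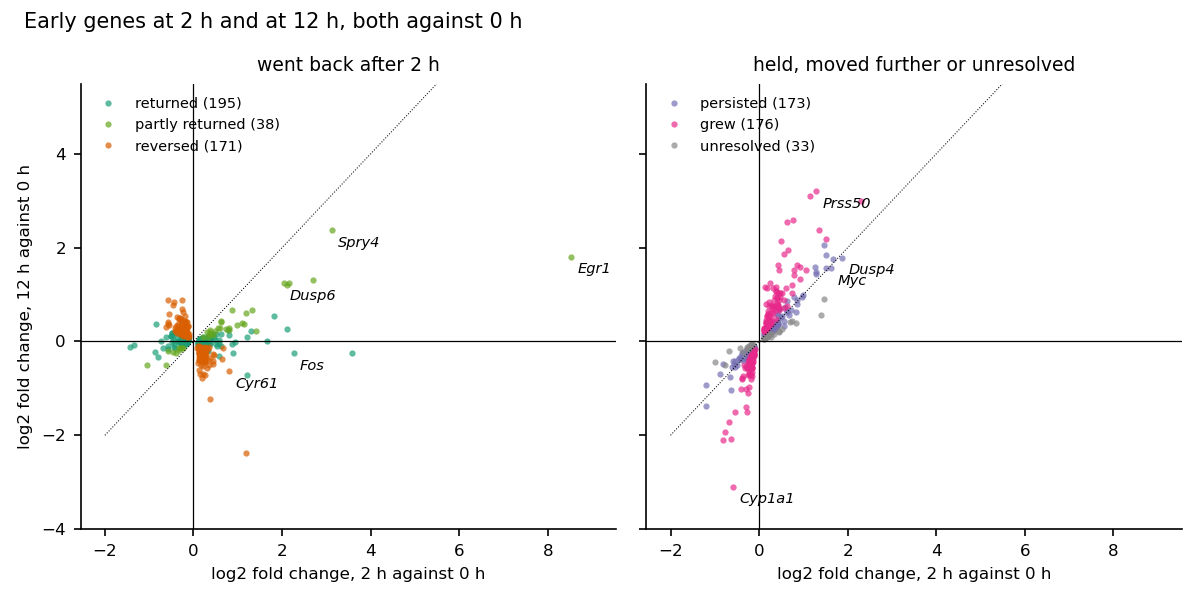
Log2 fold change of the 786 early genes at 2 h (x axis) and at 12 h (y axis), each against the same 0 h libraries, with genes that went back after 2 h on the left and the others on the right. The dotted line marks equal values at both times, and Egr1 lies far to the right at 8.53 and 1.81.

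Among the 20 immediate early transcription factors listed, 17 passed the filter on low counts. Of these 10 fell and 1 rose between 2 h and 12 h, with a median log2 fold change of -0.40, whereas 9 had been higher and 1 lower at 2 h. In 9 of the 10 that fell the libraries at 12 h lay below all of those at 2 h. Against 0 h, 5 of the 17 were still higher and 2 were lower at 12 h. Of all tested genes, 24.0% rose and 25.0% fell between 2 h and 12 h, 18.7% and 19.6% without overlap. At 2 h 3.36% were higher and 2.51% lower than at 0 h, and at 12 h 24.0% and 24.5%. These shares apply to each list below.

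Egr1, a zinc-finger factor and the classic readout of ERK, moved most. It stood at 0, 0.19, 0.26 and 0 CPM at 0 h, at 22.5, 23.4, 53.7 and 61.7 CPM at 2 h and at 0.0688, 0.588, 0.361 and 0.413 CPM at 12 h. The 2 h libraries were far above all others, and those on stiff gels were the highest. The log2 fold change between 2 h and 12 h was -6.73 (4 libraries against 4, adjusted p = 1.09e-23, edgeR's quasi-likelihood test), and the normalised ratio of 2291 counts at 2 h to 20 at 12 h was 114.5, with an exact 95% interval of 74.0 to 188 for counting error. The return was called as partial, with a log2 fold change of 1.81 from 0 h to 12 h (adjusted p = 0.0272, edgeR), but this rests on 20 counts at 12 h and 7 at 0 h over 4 libraries each. The ratio of those counts after normalisation was 3.53, with an exact 95% interval of 1.43 to 9.88 that covers counting error only.

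Fos, a subunit of the AP-1 factor, had 2.47, 1.71, 2.08 and 1.52 CPM at 0 h, 6.7, 6.28, 11.1 and 13.7 CPM at 2 h and 1.65, 1.76, 1.51 and 1.49 CPM at 12 h. Every library at 12 h lay below all at 2 h, and those at 12 h and 0 h overlapped (log2 fold change ± SE -2.51 ± 0.20, adjusted p = 3.77e-12, edgeR). Junb, another AP-1 subunit, stood at 14.3, 14.3, 14.5 and 12.7 CPM, then at 28.6, 28, 40.7 and 30.6 CPM and at 12 h at 13.5, 14.3, 17.5 and 13.5 CPM (log2 fold change between 2 h and 12 h -1.12 ± 0.09, adjusted p = 7.37e-12, edgeR). Maff, a small Maf factor, had 1.72, 2.41, 1.49 and 1.47 CPM at 0 h, 5.63, 9.06, 7.77 and 8.2 CPM at 2 h and 1.72, 2.48, 2.09 and 2.23 CPM at 12 h, again with no overlap between 2 h and the other times.

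Egr2, a relative of Egr1, was near the limit of detection throughout. It had 3 counts over the 4 libraries at 0 h, 34 at 2 h and 2 at 12 h. The normalised ratio of 2 h to 12 h was 17.0, with an exact 95% interval of 4.36 to 146 for counting error. Of the smaller early rises in the list, Ier5 (-0.50 between 2 h and 12 h) and Srf (-0.29), the serum response factor itself, also returned. Nr4a1, an orphan nuclear receptor, was the 1 member that rose between 2 h and 12 h, with 6.59 to 8.56 CPM at 2 h and 12 to 15.2 CPM at 12 h. At 0 h it had 9.17 to 11.3 CPM, above all libraries at 2 h, but this early change was not called (adjusted p = 0.0718, edgeR). Klf6, lower at 2 h, fell further to 61.5, 51.3, 58.3 and 57.2 CPM.

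Shown are the promoters of the 3 immediate early genes with the largest early log2 fold change that went back, leaving out Egr1. Of these, Egr2 rests on few counts. RefSeq (GRCm38.p6) lists 5 starts for Egr2, 1 for Fos and 3 for Maff, all on the plus strand. The 250 bases before a start are printed for the windows that hold a match and no annotated exon, and for the start of Fos. Searched on both strands were the CArG box by name (the site of the serum response factor), the ETS motif CCGGAAGT, the EGR motif GCGNGGGCG and the AP-1 motif TGANTCA. Capitals mark the matches, a CArG box in both Egr2 windows and an EGR motif in that of Maff. The window of Fos held no match, and bases further from a start were not searched.
Egr2, chr10:67537316-67537565, plus strand: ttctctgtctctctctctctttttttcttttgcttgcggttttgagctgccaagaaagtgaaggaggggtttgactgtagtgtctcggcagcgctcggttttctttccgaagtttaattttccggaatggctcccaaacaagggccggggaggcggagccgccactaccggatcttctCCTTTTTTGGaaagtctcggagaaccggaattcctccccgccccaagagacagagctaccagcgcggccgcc
Egr2, chr10:67537619-67537868, plus strand: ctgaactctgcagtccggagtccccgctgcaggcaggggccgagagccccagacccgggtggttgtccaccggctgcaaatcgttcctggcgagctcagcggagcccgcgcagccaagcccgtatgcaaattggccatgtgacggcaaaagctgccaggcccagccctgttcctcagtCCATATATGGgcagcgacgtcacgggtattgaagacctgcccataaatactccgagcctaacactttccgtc
Fos, chr12:85473640-85473889, plus strand: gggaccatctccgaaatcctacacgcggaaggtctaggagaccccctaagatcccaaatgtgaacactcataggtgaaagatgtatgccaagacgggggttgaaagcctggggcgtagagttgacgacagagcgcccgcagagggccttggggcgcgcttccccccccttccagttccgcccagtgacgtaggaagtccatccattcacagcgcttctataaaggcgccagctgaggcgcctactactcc
Maff, chr15:79347270-79347519, plus strand: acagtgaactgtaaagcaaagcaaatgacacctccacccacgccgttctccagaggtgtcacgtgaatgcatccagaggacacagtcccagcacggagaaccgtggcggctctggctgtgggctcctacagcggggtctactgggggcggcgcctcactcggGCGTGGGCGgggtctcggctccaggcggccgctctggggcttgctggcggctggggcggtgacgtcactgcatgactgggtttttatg

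Over all tested genes, 10234 had a promoter in the RefSeq table, and 1.37% of them held a CArG box within 250 bases before a listed start. Among early rises the share was 6.41% of 78 genes that returned, 5.56% of 18 that partly returned, 5.97% of 67 that reversed, 1.30% of 77 that persisted and 2.82% of 71 that grew, the partly returned share being 1 gene. Of the early falls it was 5.77% of 52 that grew and 0% in the other 4 classes named. An EGR motif was found before 10.3% of all these genes and before 17.95% of the early rises that returned, 5.56% of those that partly returned, 16.4% of those that reversed, 14.3% of those that persisted and 12.7% of those that grew. ETS and AP-1 motifs stood before 5.13% and 6.41% of the rises that returned, against 6.56% and 5.19% of all. These shares are descriptions of letters in a window, with no test, and a match is not a bound site.

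**Figure D3:**
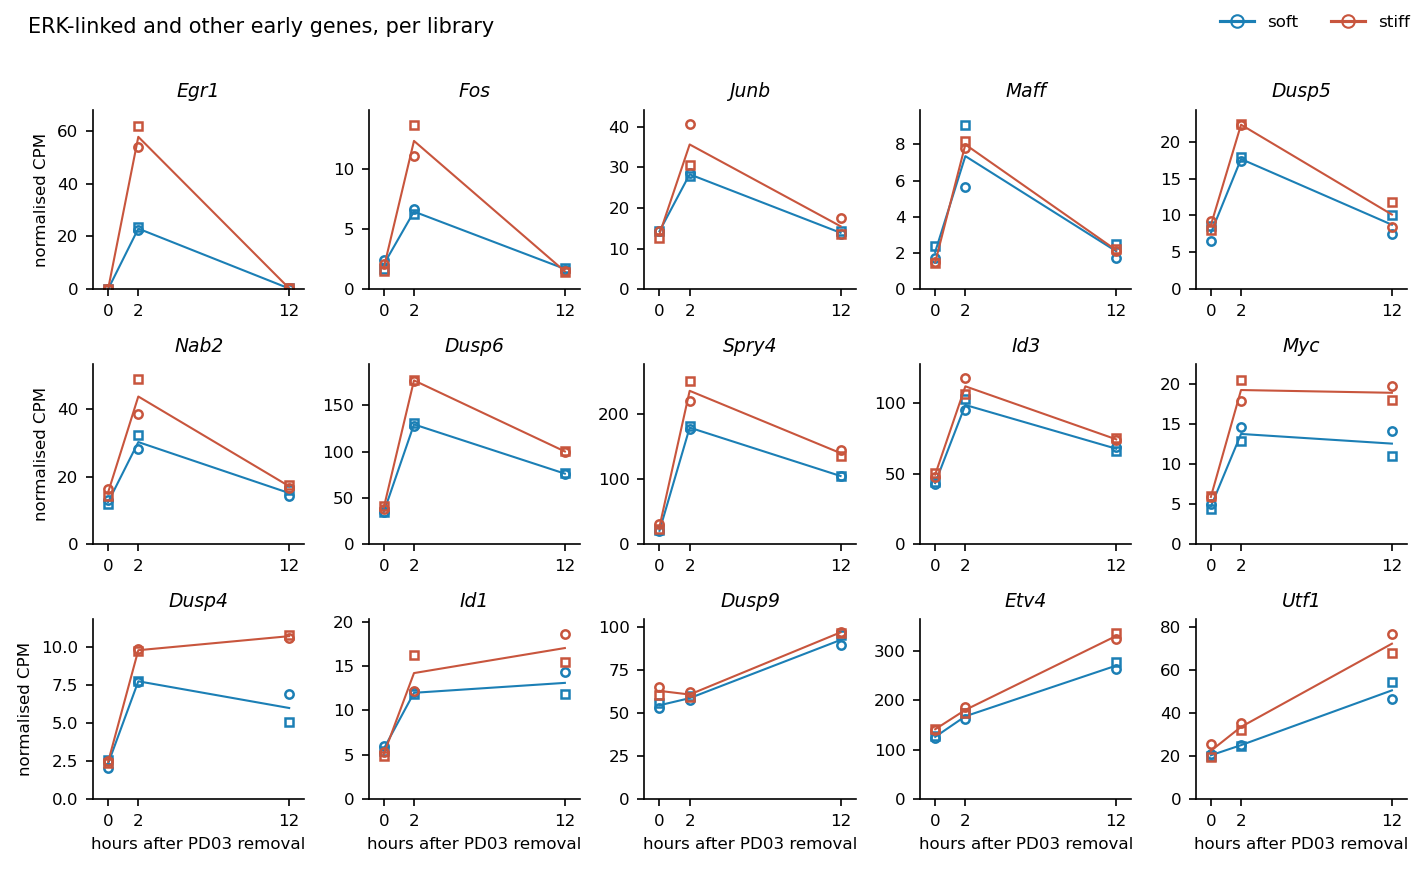
Normalised CPM (y axis, from 0) of 15 early and ERK-linked genes at 0, 2 and 12 h after PD03 removal (x axis), soft in blue and stiff in red. Circles and squares are replicates 1 and 2 and lines join the means of a substrate; Egr1, Fos and Junb come back by 12 h, Myc, Dusp4 and Id1 stay up, and Dusp9 rises only after 2 h.

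The feedback inhibitors of ERK split, with 7 of 16 tested members rising and 6 falling between 2 h and 12 h (median log2 fold change 0.0025), although 9 had been higher and none lower at 2 h. At 12 h 11 of the 16 were above 0 h and 3 below. Among all tested genes 24.0% were above and 24.5% below at 12 h, and 3.36% had been higher at 2 h. Dusp5, a nuclear phosphatase specific for ERK (chr19:53529109-53542431), had 6.6, 8.62, 9.29 and 8.09 CPM at 0 h, 17.3, 18, 22.2 and 22.4 CPM at 2 h and 7.42, 10.1, 8.44 and 11.8 CPM at 12 h. All 4 libraries at 12 h lay below all at 2 h and overlapped those at 0 h (log2 fold change between 2 h and 12 h -1.08 ± 0.11, adjusted p = 2.43e-10; from 0 h to 12 h 0.22 ± 0.12, adjusted p = 0.126, edgeR). Dusp9, which also acts on ERK (chrX:73639419-73643514), went another way, at 52.9, 56, 64.9 and 60.6 CPM at 0 h, 57.2, 59.9, 62.1 and 59.2 CPM at 2 h and 89.6, 95, 97.1 and 96.3 CPM at 12 h. Its levels at 0 h and 2 h overlapped, and every library at 12 h was above both (log2 fold change between 2 h and 12 h 0.67 ± 0.05, adjusted p = 8.08e-14, edgeR). The 3 genes that mark the ERK response thus followed separate courses, Egr1 and Dusp5 falling after 2 h and Dusp9 first rising then.

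Dusp6, a cytoplasmic ERK phosphatase, came part of the way back, from 128, 131, 176 and 178 CPM at 2 h to 75.6, 76.9, 100.01 and 100.3 CPM at 12 h, with 34.5 to 40.8 CPM at 0 h. Spry4, of the Sprouty family, had 19.96, 21.3, 30.3 and 23.7 CPM at 0 h, 176, 182, 219.8 and 251 CPM at 2 h and 105, 105, 145 and 135 CPM at 12 h. In both genes the 3 times did not overlap, and 12 h remained well above 0 h, by a log2 fold change of 1.24 ± 0.05 for Dusp6 and 2.37 ± 0.06 for Spry4. Dusp4, another nuclear phosphatase, stood at 2.07 to 2.6 CPM at 0 h, 7.7, 7.79, 9.85 and 9.71 CPM at 2 h and 6.88, 5.1, 10.6 and 10.8 CPM at 12 h, and Spry1 at 9.01 to 10.3, 14.8 to 19.3 and 12 to 17.7 CPM. Neither was called between 2 h and 12 h and both stayed above 0 h, so they persisted. On soft gels alone, however, Spry1 was called as falling (-0.36 ± 0.13, adjusted p = 0.031, edgeR), against -0.04 ± 0.12 on stiff gels.

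Spry2 and Spred1 grew by small amounts, with log2 fold changes between 2 h and 12 h of 0.12 ± 0.04 and 0.10 ± 0.04, and both overlapped between these times. On soft gels alone the change of Spred1 was -0.002 ± 0.05 and on stiff gels 0.20 ± 0.05. Dusp7, which like Dusp6 acts on ERK in the cytoplasm, was among the 5 members that first rose after 2 h, from 7.91, 10.3, 10.8 and 9.14 CPM to 18.1, 16.9, 18.4 and 16.8 CPM. At 0 h it had 10.7 to 11.7 CPM, and its early change was not called (log2 fold change -0.21 ± 0.10, adjusted p = 0.247, edgeR). Dusp1, a phosphatase of broader range, and Errfi1, an inhibitor of the EGF receptor, overshot: Dusp1 had 27 to 34.7 CPM at 0 h, 37.3 to 45.6 CPM at 2 h and 24.8 to 25.8 CPM at 12 h, below every library at 0 h.

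Of the ETS factors, many of which ERK phosphorylates or induces, 5 of 14 rose and 3 fell between 2 h and 12 h, where 24.0% and 25.0% of all tested genes did. Etv4, an ERK target of the PEA3 group, grew from 162, 173, 186 and 174 CPM to 263, 277, 324 and 336 CPM after 124 to 142 CPM at 0 h, with no overlap at any step (log2 fold change 0.78 ± 0.04, adjusted p = 1.11e-17, edgeR). Erf, an ETS repressor held back by ERK, first rose after 2 h, with 202 to 213 CPM at 2 h and 267 to 308 CPM at 12 h. In the cascade itself 8 of 19 members rose and 3 fell. Mapk3, which encodes ERK1, went from 16.2, 14.9, 14.8 and 13.5 CPM to 23.5, 24.7, 25.2 and 21.5 CPM, while Map2k1, which encodes MEK1, fell, with a log2 fold change of -0.19. Ksr1, a scaffold of the cascade, returned after an early fall (25.7 to 28.4, 19.9 to 21.9 and 24.5 to 29.9 CPM at 0, 2 and 12 h).

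Of 9 FGF ligands and receptors tested, 2 rose and 1 fell, no larger a share than the 24.0% and 25.0% of all tested genes. Fgf4, the ligand, dropped early from 207, 211, 219 and 191 CPM to 138, 135, 131 and 130.01 CPM and stood at 149, 146, 151 and 138 CPM at 12 h, a small partial return with overlap between 2 h and 12 h (log2 fold change between 2 h and 12 h 0.13 ± 0.04, adjusted p = 0.00896, edgeR). Fgfr2, a receptor at low level in these cells, fell from 4.85, 5.48, 3.85 and 4.39 CPM to 2.82, 2.94, 1.59 and 1.73 CPM without an early call.

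Several transcription regulators held their early level. Myc, the growth-promoting factor, had 5.05, 4.37, 5.85 and 5.98 CPM at 0 h, 14.7, 12.9, 17.9 and 20.6 CPM at 2 h and 14.2, 11, 19.8 and 18.1 CPM at 12 h. The later 2 times overlapped and both lay above 0 h (log2 fold change between 2 h and 12 h -0.08 ± 0.09, adjusted p = 0.53; from 0 h to 12 h 1.56 ± 0.11, adjusted p = 5.03e-14, edgeR). Among the Id genes, whose proteins block bHLH factors and which BMP induces, Id1 stood at 4.8 to 5.97, 11.8 to 16.3 and 11.9 to 18.6 CPM at the 3 times and persisted, whereas Id3 fell part of the way back, from 94.6, 102, 117 and 106 CPM to 68.8, 66.3, 73.5 and 74.9 CPM. Bmp4, a BMP ligand, persisted at 62.9 to 72.1 CPM after 38.5 to 45 CPM at 0 h. Id2 and Id4, with no early call, fell between 2 h and 12 h, Id4 from 16.5, 15.3, 17 and 15.9 CPM to 8.73, 6.01, 7.14 and 7.84 CPM.

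Ptgs2, which encodes cyclooxygenase-2, and Nab2, a corepressor of the EGR factors, were among the other early rises that came back. Nab2 stood at 13, 12, 16.4 and 14.3 CPM, 28.1, 32.4, 38.6 and 48.9 CPM and 14.2, 16.1, 16.7 and 17.7 CPM at 0, 2 and 12 h. It counted as partly returned by a narrow margin (log2 fold change from 0 h to 12 h 0.23 ± 0.10, adjusted p = 0.0492, edgeR). Ptgs2 had 1.85, 1.83, 3 and 5.32 CPM at 2 h and 0.55, 1.37, 0.433 and 0.578 CPM at 12 h, with 1.03 to 1.75 CPM at 0 h. Smad7, the inhibitory Smad, and the naïve factors Klf5 and Esrrb likewise returned, Smad7 with 119.6 to 148, 162 to 237 and 110.5 to 148 CPM at the 3 times.

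Targets of SRF, MRTF and YAP, factors that respond to actin and to the extracellular matrix, counted 10 of 12 tested members falling and 1 rising between 2 h and 12 h (median log2 fold change -0.52). All 10 fell without overlap, 9 were called on soft and 10 on stiff gels alone, and 8 of the 12 had been higher and none lower at 2 h. At 12 h 9 members were below 0 h and 1 above. Over all tested genes 25.0% fell, 19.6% without overlap, 16.1% on soft and 19.4% on stiff gels alone. The share higher at 2 h was 3.36%, and that below 0 h at 12 h was 24.5%. Cyr61, a matricellular protein and standard YAP target, had 21.3, 22.1, 22.1 and 22.5 CPM at 0 h, 37.4, 32.6, 41.4 and 42.9 CPM at 2 h and 14.2, 15.7, 12 and 14.8 CPM at 12 h. It reversed, the 12 h libraries lying below all at 0 h (log2 fold change between 2 h and 12 h -1.44 ± 0.08, adjusted p = 4.87e-16; from 0 h to 12 h -0.63 ± 0.09, adjusted p = 2.06e-07, edgeR).

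Ctgf, a related matricellular gene, stood at 24.2 to 29.8, 37.5 to 49.3 and 17.2 to 22.5 CPM at 0, 2 and 12 h. Amotl2, a YAP target that restrains YAP, fell from 227, 235, 225 and 249 CPM to 127, 126, 130.4 and 139.6 CPM and had 169 to 179 CPM at 0 h. Actg1, Vcl and Flna, which encode γ-actin, vinculin and filamin A, also reversed, whereas Actb, β-actin, returned. Zyx, the focal adhesion protein zyxin, was the exception, and grew from 7.63, 6.36, 9.72 and 9.42 CPM to 12, 11.4, 15.3 and 14.1 CPM after 3.82 to 4.81 CPM at 0 h.

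Pluripotency genes were among the reversals too. Sox2, a core factor, had 468, 466, 467 and 461 CPM at 0 h, 546, 549, 589 and 576 CPM at 2 h and 391, 406, 428 and 406 CPM at 12 h. Foxd3, which mESCs need for self-renewal, had 48.5 to 51 CPM at 0 h, 74.4 to 84.2 CPM at 2 h and 39.2 to 49.9 CPM at 12 h. Both ended below 0 h, by log2 fold changes of -0.19 ± 0.03 and -0.14 ± 0.06, and the 12 h libraries of Sox2 were below all the others. Besides Cyr61 and Ctgf, the reversed rises with the largest later change were Gm34653, a predicted gene with 90 counts over the 4 libraries at 2 h and 7 at 12 h, Kcnf1, a potassium channel subunit with 10.2 to 12.08 CPM at 2 h and 2.74 to 4.05 CPM at 12 h, and Dcaf12l1.

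The early falls that went back included Wnt pathway genes. Fzd10, a Wnt receptor, had 129.6, 137, 133 and 133 CPM at 0 h, 89, 94.3, 85.4 and 80.1 CPM at 2 h and 143, 150.4, 139 and 132 CPM at 12 h, and returned (log2 fold change between 2 h and 12 h 0.70 ± 0.04, adjusted p = 1.12e-15, edgeR). Axin2, the negative feedback gene of the pathway, dipped from 139, 133, 122 and 134 CPM to 113, 121, 104 and 105 CPM and overshot to 160.1, 154, 146 and 158 CPM. Cdx2, a caudal factor that β-catenin induces, did the same, with 13.1 to 15.5, 8.58 to 11 and 17.4 to 20.7 CPM at the 3 times.

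Of the 13 Wnt feedback targets tested, 9 rose, all without overlap, and 1, Notum, fell between 2 h and 12 h (median log2 fold change 0.56), while 2 had been lower and none higher at 2 h. Over all tested genes 24.0% rose, 18.7% without overlap, and 2.51% were lower at 2 h. T, or Brachyury, the factor of the primitive streak, first rose in the interval, from 12.19, 11.4, 12.5 and 11.1 CPM to 31.5, 30.4, 34.2 and 36.7 CPM. Nkx1-2, a homeobox gene of the posterior epiblast, reversed after an early fall, with 21.2 to 25.3, 15.3 to 18.4 and 36.7 to 44.7 CPM at the 3 times. Rgma, a membrane co-receptor of BMP, returned (21.1 to 24.4, 12.4 to 15.5 and 22 to 23.9 CPM), as did Snai1, a repressor of E-cadherin (2.09 to 2.79, 1.29 to 1.35 and 2.35 to 4.33 CPM). Early falls that persisted included Tiam2, an activator of Rac, and Fgf3, an FGF ligand, with 6.77, 6.46, 6.88 and 5.34 CPM at 0 h, 2.57, 4.53, 3.78 and 3.6 CPM at 2 h and 4.67, 5.75, 3.17 and 4.54 CPM at 12 h. In Fgf3 the 2 later times overlapped and no later change was detectable (0.33 ± 0.18, adjusted p = 0.125, edgeR).

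Early rises that grew had some of the steepest courses. Prss50, a serine protease, had 0.57 to 1.61 CPM at 0 h, 2.57, 2.94, 3.46 and 3.6 CPM at 2 h and 10.1, 9.34, 13.8 and 14.4 CPM at 12 h, a log2 fold change from 0 h of 3.20 ± 0.16. Nlrc4, an inflammasome sensor, had 4.99, 5.01, 5.85 and 5.15, then 9.98, 8.98, 7.05 and 9.86 and then 24.8, 25.5, 40.3 and 35.6 CPM. Zfp423, a zinc-finger factor, Cd37, a tetraspanin, and 9330159F19Rik rose alongside, with log2 fold changes between 2 h and 12 h of 1.93 ± 0.12, 1.65 ± 0.09 and 1.96 ± 0.18. In all 5 the 3 times did not overlap.

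Utf1, a chromatin-bound factor of pluripotent cells, climbed from 25.2, 24.9, 35.1 and 31.9 CPM to 46.7, 54.3, 76.6 and 67.7 CPM. Dnmt3l, the partner of the de novo DNA methyltransferases, stood at 123 to 158 CPM at 2 h and 192 to 238 CPM at 12 h, and Rarg, a retinoic acid receptor, at 118 to 128 CPM at 2 h and 224 to 269.7 CPM at 12 h. Of the falls that grew, Spic, an ETS factor, went from 9.05, 10.4, 9.4 and 7.77 CPM to 3.64, 3.79, 3.61 and 2.39 CPM after 12.11 to 15.5 CPM at 0 h. Lefty2, an inhibitor of Nodal that the fit over both substrates put in the same class, had 2.92, 3.58, 8.81 and 7.12 CPM at 2 h and 1.72, 2.68, 3.75 and 1.9 CPM at 12 h after 13.8, 10.3, 8.05 and 6.57 CPM at 0 h. The calls of Lefty2 came from different substrates. The early fall was seen on soft gels only, and the later one was called on stiff gels (-1.47 ± 0.25) but not on soft gels (-0.55 ± 0.30, adjusted p = 0.174, edgeR). On soft gels both libraries at 12 h still lay below both at 2 h. The difference between substrates in the later change was not called (adjusted p = 0.798, edgeR).

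Of all tested genes, 3.36% were called higher and 2.51% lower at 2 h. Of the 6564 genes called between 2 h and 12 h, 580 had such an early call and most had none. Those that first moved after 2 h, called between 2 h and 12 h and between 0 h and 12 h in the same direction but not at 2 h, numbered 2359 that rose (17.6% of the genes tested) and 2552 that fell (19.1%). A gene not called at 2 h may still have begun to move, and 2071 and 2270 of them also had an unadjusted p of at least 0.05 at 2 h. At least 2-fold between 2 h and 12 h were 162 of those that rose and 177 of those that fell.

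Cntfr, the receptor subunit for ciliary neurotrophic factor, rose most among those above 1 CPM on average (chr4:41657498-41697089). It had 0.975, 1.08, 0.52 and 1.23 CPM at 0 h, 1.07, 1.27, 1.17 and 1.37 CPM at 2 h and 8.8, 7.71, 14.1 and 15.4 CPM at 12 h. The first 2 times overlapped and 12 h lay far above both, with the stiff libraries highest (log2 fold change between 2 h and 12 h 3.22 ± 0.19, adjusted p = 1.83e-15, edgeR). Lin28a, an RNA-binding protein that blocks let-7 and rises as cells leave the naïve state (chr4:134003330-134018841), had the smallest p of any rise. It was flat at first, with 112, 106, 118 and 111 CPM at 0 h and 114, 117, 118 and 119.7 CPM at 2 h, and then reached 331, 327, 405 and 407 CPM (log2 fold change 1.64 ± 0.04, adjusted p = 2.18e-25, edgeR).

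Sox11, a SoxC factor of the early neural lineage, followed the same shape at a lower level, from 6.06, 4.53, 4.5 and 4.39 CPM to 17.7, 19.8, 22.6 and 22.8 CPM. Myrf, a membrane-bound transcription factor, went from 2.21, 1.75, 1.89 and 1.73 CPM to 9.35, 11.6, 15.4 and 14.4 CPM, and Trf, transferrin, from 0.428, 0.397, 0.914 and 0.648 CPM to 3.16, 3.33, 5.05 and 5.61 CPM. Igfbp4, which binds insulin-like growth factors, Ccnd2, cyclin D2, Has2, a hyaluronan synthase, Epha1, an ephrin receptor, Chrna9 and Crocc2 complete the 10 with the largest rise. Their log2 fold changes lay between 2.06 for Epha1 and 2.51 for Igfbp4, and Ccnd2 was at 0.392 to 1.08 CPM and Has2 at 0.318 to 0.587 CPM at 2 h. Foxp4, Ahdc1 and Enox1, with Lin28a and Rarg the rises of smallest p, were more abundant, Foxp4 with 23.3 to 25.3 CPM at 2 h and 58.1 to 76.5 CPM at 12 h.

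**Figure D4:**
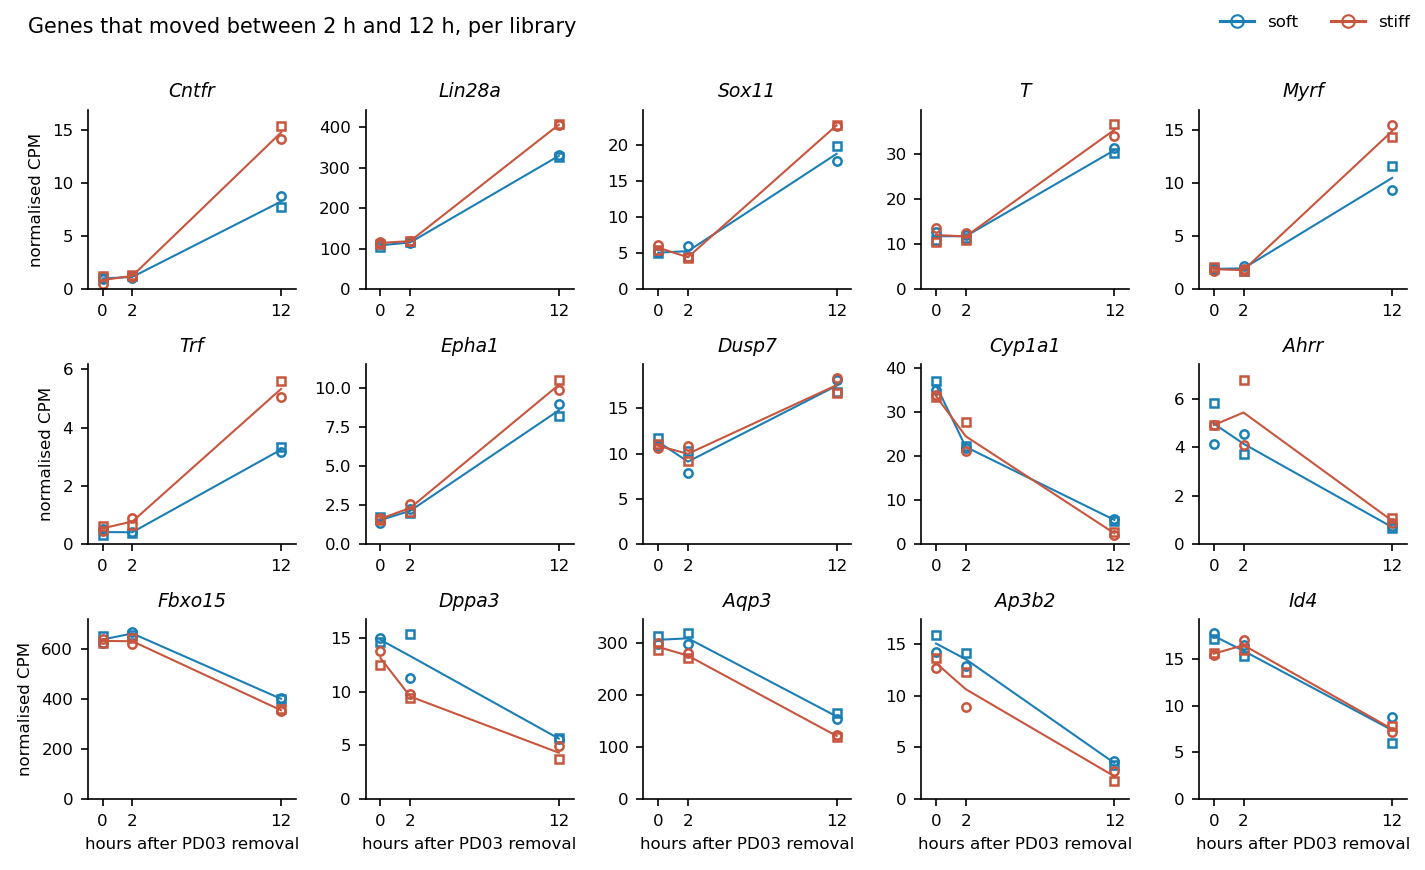
Normalised CPM (y axis, from 0) of 15 genes that rose or fell between 2 h and 12 h, drawn as in the plot of early genes. Cntfr, Lin28a, Sox11, T and Myrf overlap between 0 h and 2 h and are higher at 12 h, and Ahrr, Fbxo15, Aqp3 and Id4 overlap between 0 h and 2 h and are lower at 12 h.

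Among the genes that first fell after 2 h, Fbxo15, an F-box gene of naïve cells, had the smallest p of those with no early call, with 624, 651, 638 and 625 CPM at 0 h, 668, 655, 619 and 642 CPM at 2 h and 402, 399, 351 and 359 CPM at 12 h (log2 fold change -0.78 ± 0.03, adjusted p = 3.59e-19, edgeR). Aqp3, a channel for water and glycerol, fell from 299, 319, 279.7 and 271 CPM to 153, 165, 124 and 119 CPM. Ap3b2, a subunit of an adaptor complex, fell from 12.9, 14.1, 8.94 and 12.3 CPM to 3.64, 3.33, 2.67 and 1.73 CPM. The others with the largest falls were Pga5, Slc24a5, Tmem132d, S100a13, Gm3183, Oc90, Aldh1a2, an enzyme that makes retinoic acid, and the aryl hydrocarbon receptor targets Ahrr and Cyp1b1. Their log2 fold changes lay between -2.57 for Pga5 and -1.72 for Aldh1a2, and Gm3183 belongs to a family of near-identical copies, so that its counts are uncertain.

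The aryl hydrocarbon receptor, a ligand-activated factor that induces enzymes of xenobiotic metabolism, had the lowest median of the lists, with 7 of 9 targets and partners falling and 1, its partner Arnt, rising (median log2 fold change -1.20). On soft gels alone 7 were called as falling and on stiff gels alone 7, and 7 members were below 0 h at 12 h. Among all tested genes 25.0% fell, 16.1% on soft and 19.4% on stiff gels alone, and 24.5% were below 0 h at 12 h. Cyp1a1, its most studied target (chr9:57687928-57703824), had 35.2, 37.2, 34 and 33.4 CPM at 0 h, 21.9, 22.3, 21.3 and 27.8 CPM at 2 h and 5.84, 5.23, 2.09 and 2.89 CPM at 12 h. The 3 times did not overlap and the lowest values were the stiff libraries at 12 h (log2 fold change between 2 h and 12 h -2.52 ± 0.14, adjusted p = 4.87e-16, edgeR). Ahrr, the repressor of the receptor, went from 4.56, 3.73, 4.11 and 6.76 CPM to 0.756, 0.653, 0.865 and 1.07 CPM and Cyp1b1 from 2.85, 2.22, 2.35 and 3.6 CPM to 0.825, 0.392, 0.144 and 0.825 CPM, neither with an early call. Tiparp, another target, behaved differently, being higher at 2 h (166 to 191 CPM after 103 to 110.3 CPM) and partly returned at 12 h (116 to 140.5 CPM).

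**Figure D5:**
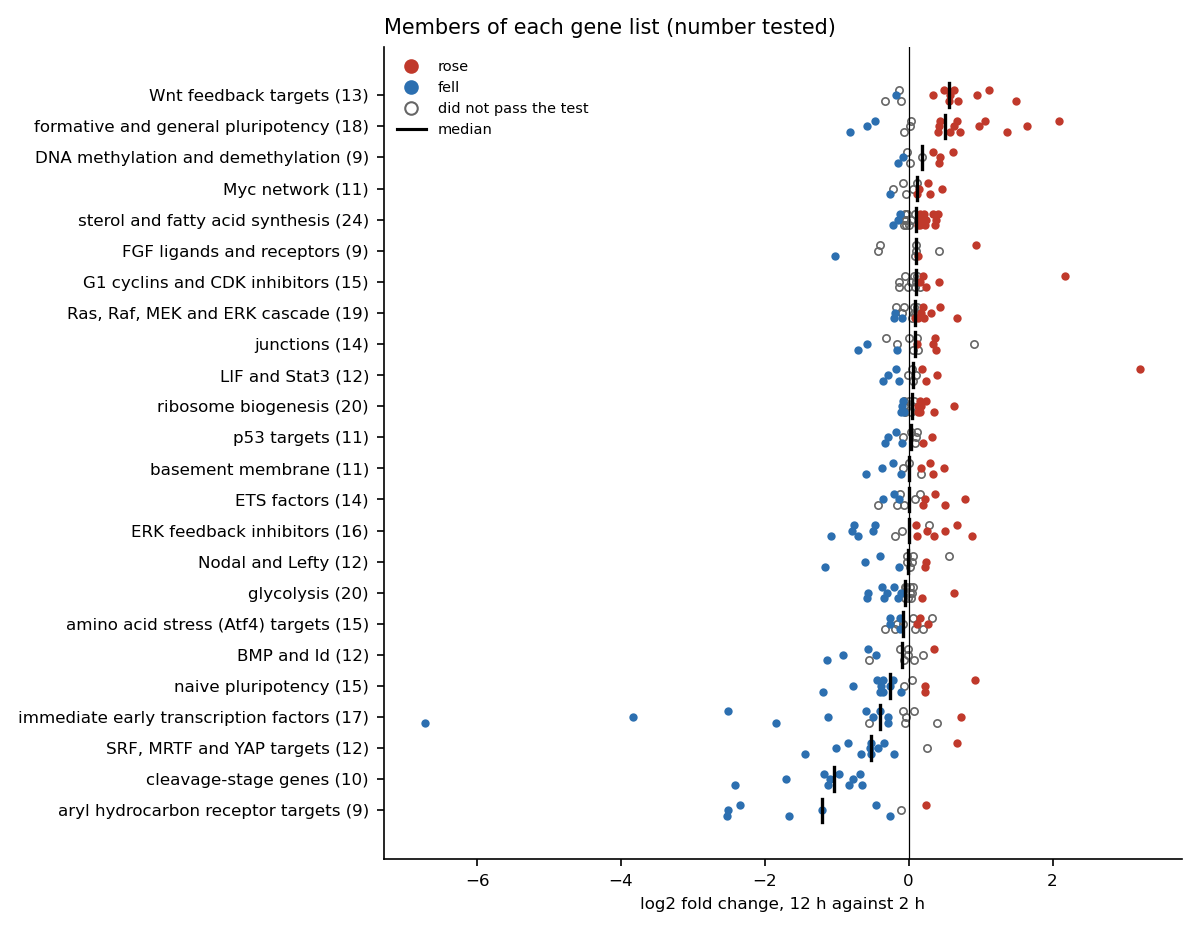
Log2 fold change between 2 h and 12 h (x axis) of each tested member of 24 gene lists, ordered by median. Filled points passed the test, in red for rises and blue for falls, and the black bars mark the medians, from -1.20 for aryl hydrocarbon receptor targets to 0.56 for Wnt feedback targets.

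Of 15 naïve pluripotency genes 10 fell and 3 rose between 2 h and 12 h (median log2 fold change -0.26), all without overlap, and at 12 h 8 were below 0 h and 4 above. Among all tested genes 25.0% fell and 24.0% rose, 19.6% and 18.7% without overlap, and 17.6% first rose after 2 h. Dppa3, a maternal factor that marks naïve cells, went from 11.3, 15.3, 9.72 and 9.35 CPM to 5.57, 5.68, 4.9 and 3.71 CPM. The other falls were smaller than 2-fold, down to that of Esrrb at -0.11 ± 0.03. Gbx2, a LIF and Stat3 target that sustains naïve cells, moved the other way, from 65.5, 66.7, 67.9 and 61.6 CPM to 113, 118, 135 and 128 CPM, and Klf2 came back from an early dip. Of 18 tested formative and general pluripotency genes 12 rose and 3 fell (median log2 fold change 0.50), 11 of the 12 without overlap, and 10 had first risen after 2 h. The 3 that fell were Foxd3, Sox2 and Otx2, an early factor of the formative state that stood at 3.85, 4.37, 4.7 and 4.6 CPM at 2 h and 2.13, 2.61, 3.53 and 3.47 CPM at 12 h.

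All 10 tested cleavage-stage genes, which are transcribed in a rare fraction of mESCs that resembles the early embryo, fell between 2 h and 12 h (median log2 fold change -1.03), 9 of them without overlap. None had an early call and all 10 were below 0 h at 12 h. Over all tested genes 25.0% fell, 19.6% without overlap, and 24.5% were below 0 h at 12 h. Khdc1a had 82 counts over the 4 libraries at 0 h, 39 at 2 h and 7 at 12 h. The normalised ratio of 2 h to 12 h was 5.57, with an exact 95% interval of 2.46 to 14.8 for counting error. That of 2 h to 0 h was 0.588 (0.391 to 0.871), so its counts were already lower at 2 h. Khdc1c likewise had 91, 37 and 11 counts at the 3 times. The median log2 fold change of the whole list from 0 h to 2 h was 0.03. These genes form families of similar copies, such as the Zscan4 and Usp17l genes, whose reads may be split or lost, and in bulk RNA fewer cells of a kind and less RNA per cell cannot be told apart.

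The remaining lists are given by their counts of genes that rose and fell. Between 2 h and 12 h 4 of 12 LIF and Stat3 genes rose and 4 fell, with Pim1 reversed and Pim3 partly returned after early rises, and Socs3 persisted. Of the Nodal and Lefty genes 2 of 12 rose and 4 fell, of the BMP and Id genes 1 of 12 rose and 4 fell, and of the DNA methylation genes 4 of 9 rose, Dnmt3l and Dnmt3b among them, and 2 fell. Of 11 genes of the Myc network 5 rose and 1 fell. Of 15 G1 cyclins and CDK inhibitors 5 rose and none fell.

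Of the metabolic lists, 8 of 20 glycolysis genes fell and 2 rose, Ldhb and Hk1 with the largest falls (-0.58 and -0.57), while 12 of 24 sterol and fatty acid synthesis genes rose and 3 fell, led by Scd2 at 0.41. Ribosome biogenesis genes counted 8 of 20 rising and 4 falling, and Ncl, nucleolin, reversed with 448 to 537 CPM at 2 h and 729 to 812 CPM at 12 h after 517 to 616 CPM at 0 h. Among Atf4 targets 3 of 15 rose and 4 fell, among p53 targets 2 of 11 and 4, among basement membrane genes 4 of 11 and 4, and among junction genes 4 of 14 and 3. Genes of the mitochondrial genome rose in 11 of 13 cases with none falling (median log2 fold change 0.56), and 10 of the 13 were also higher at 2 h than at 0 h. The part of their rising share in the other results was not tested beyond leaving these genes out, which gave 6555 calls between 2 h and 12 h. These lists are compared with 24.0% and 25.0% of all tested genes that rose and fell, and no test of a list was made.

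On soft gels alone 2043 genes rose (15.3%) and 2162 fell (16.1%) between 2 h and 12 h, and on stiff gels alone 2428 rose (18.1%) and 2595 fell (19.4%). Both substrates called 1565 genes higher and 1708 lower, and 4 genes were called in opposite directions. A test of the difference between substrates in this change called 0 of 13393 genes (0.00%) by edgeR, with 794 at an unadjusted p under 0.05 and a smallest adjusted p of 0.0889, and 3 genes by DESeq2. Egr1 fell with a log2 fold change of -6.07 on soft gels and -7.20 on stiff gels, a difference of 1.13 ± 0.81 (adjusted p = 0.908, edgeR). For Fos the changes were -1.92 ± 0.24 and -3.03 ± 0.23, and for Cyp1a1 -2.0 ± 0.14 and -3.31 ± 0.17, with adjusted p of 0.775 and 0.0926 for the differences (edgeR). Those of Dusp5 (-1.01 ± 0.16 and -1.15 ± 0.15), Dusp9 (0.66 ± 0.06 and 0.67 ± 0.06) and Spry4 (-0.77 ± 0.07 and -0.75 ± 0.07) lay within a standard error of each other. Of the genes named here as rising or falling, Esrrb, Notum, Ptgs2, Spred1 and Lefty2 were called on stiff gels alone. Otx2, Arnt and Khdc1a were called on soft gels alone, and Spry2 and Fgf4 on neither by itself. The gene with the smallest p for the difference was Hes1, a Notch target, with a log2 fold change of 0.02 on soft gels and -0.60 on stiff gels, a difference of 0.62 ± 0.11. Differences that miss the threshold with 2 replicates a group do not show that the substrates acted alike.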

How the data were processed

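RNA was measured by sequencing of Ribozero-depleted libraries from E14 mESCs on StemBond hydrogels. The deposited table holds raw counts per gene, which the authors made with TopHat2 2.1.0 and featureCounts 1.5.0 on mm10 with Ensembl 86 (Trim Galore and DESeq2 are also among the submitters' processing notes). Their strand setting is not given in the sources used here, so overlapping and antisense genes are uncertain. The table also holds 12 columns named for serum and LIF that match no sample of the series and were not used, and the separate table of CHIRON removal was not used either. Left out were 23 blank rows with no name and no counts, and 15 rows whose names had turned into dates, the latter with 0.140% to 0.152% of the counts of a library.

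Of 35022 named rows, 33945 matched GENCODE M21, 454 of them by a synonym, and 19254 were protein-coding. These took 73.1% to 77.5% of the counts. Counts were filtered by filterByExpr (minimum count 10, total 15), scaled by TMM and fitted in edgeR 4.0.16 (R 4.3.3) with the quasi-likelihood test over the 12 libraries, with time and substrate as terms and Benjamini-Hochberg adjustment at 0.05. Errors of log2 fold changes are the SE that the F statistic implies (the log2 fold change over the square root of F). This SE is too small for very large changes at few counts, as in Egr1. Counting intervals are given instead for the changes of Egr1 over both substrates, while its difference between substrates is given with the SE. Substrate-wise changes and their difference came from a fit with all 6 groups. Depth sets the precision of low genes, for which counts and exact 95% intervals are given, and intervals cover counting error only. Tables and figures were made in Python 3.11.15 with pandas 2.3.3, scipy 1.17.1 and matplotlib 3.10.9.

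Genes were named by rule: the markers, the most changed and the early-called members of each list, the 5 most changed of each class without overlap, the 10 most changed first movers above 1 CPM in each direction and the 5 of smallest p. Hes1 was named after its values were seen. Members and lists were chosen with earlier results of these data known. Counts were also simulated for 13231 genes, 200 of them with a shift of 1 on the log2 scale between 2 h and 12 h. Of these 200, edgeR found 183 and called 13 others, and DESeq2 179 and 12. Most changes called in the data were smaller, with a median of 0.30 on that scale. Recovery of such smaller changes was not tested. Alternatives were DESeq2 1.42.0, other scaling, no filter, a minimum fold, each substrate alone, a replicate block, leaving out each library and, chosen after seeing the data, leaving out mitochondrial genes.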

Additional observations from a re-analysis of the deposited data

How the results depend on the processing

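With DESeq2, with no filter on low counts and with a replicate block, the difference between substrates was called for 3, 7 and 3 genes, and for 0 to 4 when 1 library was left out. The partly returned early falls numbered 6 with DESeq2 and 5 with no filter. With a minimum of 2-fold in every contrast, 218 genes rose and 233 fell between 2 h and 12 h, 37 and 6 at 2 h and 260 and 238 from 0 h to 12 h. The early rises then held 9 that returned, 2 partly, 1 reversed, 16 persisted and 3 grown, the early falls 2, 0, 0, 1 and 0, and 126 and 160 genes first moved.

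On soft gels alone 2043 rose and 2162 fell between 2 h and 12 h, 179 and 87 at 2 h and 1940 and 1991 from 0 h to 12 h, and on stiff gels alone 247 and 118 at 2 h. Early genes called on both substrates were 22 returned, 15 reversed, 31 persisted and 34 grown among rises, and 7, 13, 5 and 8 among falls. Spred1 and Hes1 changed sign on soft gels alone, at -0.0020 and 0.015 on the log2 scale and neither called. The cause was not tested for any of these, beyond fewer samples on 1 substrate and a stricter call.

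Leaving out 1 library gave 2869 to 3220 rises and 3042 to 3374 falls between 2 h and 12 h, 349 to 462 and 215 to 363 at 2 h, 2866 to 3233 and 2959 to 3330 from 0 h to 12 h, and 2080 to 2293 and 2266 to 2518 first movers. For early rises the ranges were 80 to 116 returned, 18 to 32 partly returned, 54 to 90 reversed, 80 to 112 persisted and 69 to 113 grown. For early falls they were 58 to 89, 3 to 10, 53 to 84, 30 to 72 and 48 to 90. The lowest counts of early falls, of falls that persisted and of falls that grew came without stiff 0 h replicate 1, of both reversed classes without soft 0 h replicate 1, of falls that returned without soft 2 h replicate 2, of falls that partly returned without stiff 12 h replicate 1 and of rises that partly returned without soft 12 h replicate 1.

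Same-numbered libraries did not deviate together (mean correlation -0.0027, from -0.053 to 0.114), and the replicate block called 6568 genes between 2 h and 12 h, of which 6528 were among the 6564 called without it. Under the alternatives fitted to both substrates, none of the 6564 genes was called in the opposite direction, whereas 4 genes were called in opposite directions on soft and on stiff gels alone.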
